A study of Mus musculus with 29 samples.

Results

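Peritoneal tissue of 4 mice treated with anti-CTLA4 alone, none of them cured, was compared gene by gene with peritoneal tissue of 3 mice cured by dual ICI (anti-PD1 together with anti-CTLA4), all at 5wk (day 35). These are 7 of the 29 RNA-seq libraries of a mouse model of gastric cancer peritoneal dissemination, and each library came from 1 mouse. The 4 anti-CTLA4 libraries carry the numbers 1 to 4 in their labels, and the fifth mouse of that group died before autopsy. The cured libraries are those of dual ICI at day 35 numbered 2, 3 and 4. The labels give treatment and number but no outcome, so the library numbers were taken as the mouse numbers that the study's text calls cured. All mice were young females of the strain C57BL/6J and received YTN16 cells, 1 mouse gastric cancer line, by intraperitoneal (IP) injection, and the antibodies were also injected IP. The labels call every sample tumor tissue, while the methods describe stripped peritoneum with or without disseminated nodules. Both groups had received anti-CTLA4. They differed in anti-PD1 and in outcome at once, so treatment and outcome cannot be told apart here. The other libraries at 5wk served as reference. They were from 5 untreated mice, 5 mice given anti-PD1 alone and 2 dual ICI mice that were not cured (numbers 1 and 5, dual ICI-uncured).

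CTLA4 is an inhibitory receptor that T cells raise after activation and that regulatory T cells carry constantly, and PD1 is an inhibitory receptor of activated and exhausted T cells. Antibodies against either receptor lift that inhibition, mainly at T cell priming for CTLA4 and in the tissue for PD1. In peritoneal dissemination, gastric cancer cells attach to the mesothelium that lines the abdominal wall and invade the stroma beneath it, next to the abdominal muscles, so a bulk library from this site mixes RNA of tumor epithelium, stroma, leukocytes, fat and skeletal muscle.

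Library totals ranged from 27574648 to 30012698 counts in the anti-CTLA4 mice and from 27999482 to 28489995 in the cured mice, and no pair of libraries was a duplicate. The unit of level is CPM, a gene's count relative to the library's total after TMM scaling (edgeR's trimmed mean of M-values) over the 19 libraries at 5wk. CPM does not correct for gene length, so genes are not ranked against each other by level. A gene was called when edgeR's quasi-likelihood test gave an adjusted p under 0.05 over all genes tested. Log2 fold changes are anti-CTLA4 minus cured and carry their SE. TMM takes most genes as unchanged, whereas 62.5% of genes were called here. Its factors were 0.95 to 1.23 with anti-CTLA4 and 0.69 to 0.72 in cured tissue. The sign of a small change can therefore depend on this scaling. Among the genes named below, this holds for falls as small as those of Vegfa, Myog, Smad3, Ifit1, Usp18 and Irgm2. Values per library follow the library numbers, 1 to 4 for anti-CTLA4 and 2, 3, 4 for cured. A call described as lost or gained without several libraries changed when each of them was left out in turn. Where every cured library held 3 counts or fewer, the fold is given as a lower bound against 3 counts per library. Anti-PD1 library 5 stood with the cured libraries in the shares of epithelial and muscle genes. It entered a test against cured tissue only in the alternative with all 19 libraries in the fit. The labels do not say whether it is from the anti-PD1 mouse that the study calls cured.

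The tissue content of the libraries differed first. A list of 54 gastric and epithelial genes, which marks the tumor in peritoneum, took 1.29% ± 0.527 (SD, n = 4) of all counts in the anti-CTLA4 libraries, from 0.561% to 1.82%. In the cured libraries the same list took 0.0143% ± 0.00662 (SD, n = 3), from 0.00929% to 0.0218%, which is 90.1 times less. A list of 34 skeletal muscle contractile genes went the other way, with 12.5% ± 5.50 (SD, n = 4) against 27.4% ± 1.05 (SD, n = 3), a mean 2.19 times lower with anti-CTLA4. Neither list overlapped between the groups. Each exact two-sided permutation p was 0.0571, the smallest that this test, which doubles the smaller tail, gives for 4 mice against 3. The groups were set by outcome and the lists were chosen with earlier results known. A difference in tumor genes was thus given in advance, and these p-values are descriptions. By level, the label of tumor tissue fits the anti-CTLA4 libraries, whereas the cured libraries held close to none of the epithelial counts. In bulk RNA fewer cells of a type and less RNA per cell cannot be told apart, and how far these 2 shares set the levels of other genes was not tested.

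**Figure D1:**
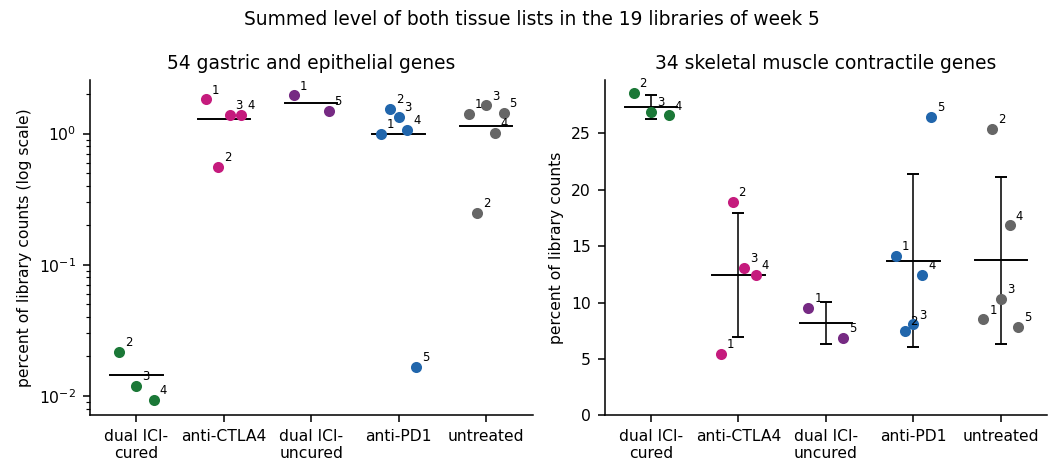
Summed share of library counts (percent) of 54 gastric and epithelial genes (left, log scale) and of 34 skeletal muscle contractile genes (right, linear scale) in the 19 libraries at 5wk. Points are libraries with their numbers, horizontal lines are group means, and the bars on the right are SD. The 3 cured libraries lie at or below 0.0218% on the left and at or above 26.6% on the right, and anti-PD1 library 5 lies beside them.

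Of 15668 genes tested, 9785 were called (62.5%). Of these, 5268 were higher with anti-CTLA4 (33.6% of genes tested) and 4517 lower (28.8%). With a fold change over 2 in addition, 3075 were higher (19.6%) and 1891 lower (12.1%). The libraries of both groups did not overlap for 5452 genes that lay higher with anti-CTLA4 (34.8%) and for 4859 that lay lower (31%). The median log2 fold change of all genes tested was 0.05. Because most genes were called, a list is described below by its counts and median against these shares. Beyond the summed epithelial and muscle lists above, no list as a whole was tested. Where the members of a list are close to 0 in cured tissue, they passed the filter on low counts through the anti-CTLA4 libraries and had to differ, so the counts and medians of the gastric, epithelial, neutrophil, chemokine and lymphocyte lists are descriptions. A stricter test, of a change beyond 2-fold (glmTreat), called 2447 genes, of which 2051 were higher. Both tails of the plot of all genes differed in kind, since the epithelial and neutrophil genes reached log2 fold changes above 5 while the falls of muscle and oxidative phosphorylation genes, many of them at high levels, went no further than that of Mb at -3.05.

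**Figure D2:**
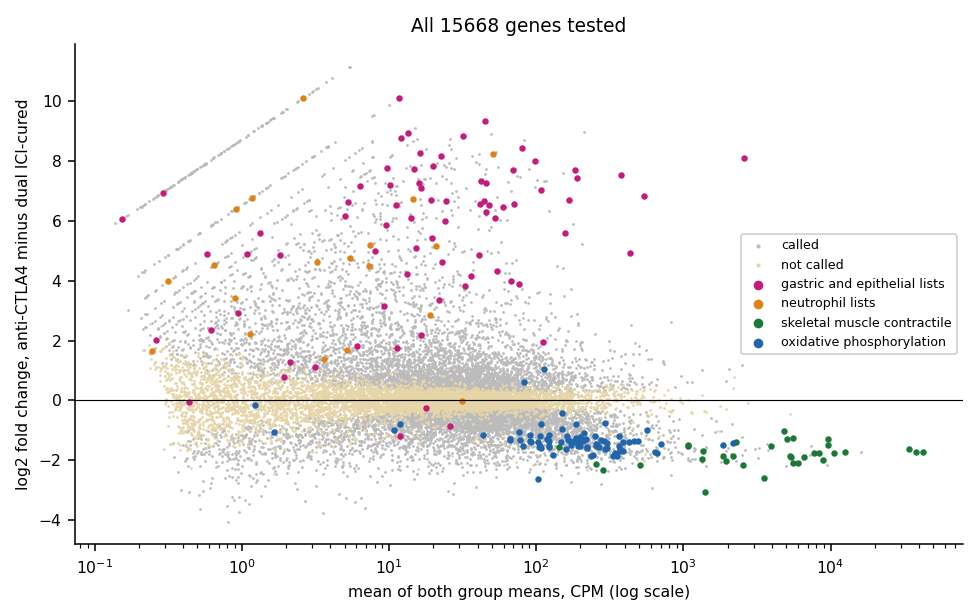
Log2 fold change (anti-CTLA4 minus dual ICI-cured) against the mean CPM of both groups (log scale) for all 15668 genes tested. Points are genes, with 4 sets of lists in colour. The straight line of points at the upper left consists of genes with 0 counts in the cured libraries, whose fitted fold change depends on the prior count and is no measured fold.

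Genes of the tumor epithelium formed the strongest rise. Of 24 gastric secretory products 20 passed the filter, and of these 18 were higher and none was lower (median log2 fold change 6.53). Dmbt1, a secreted mucosal scavenger receptor protein (chromosome 7, 131032053 to 131121630, GRCm38), had the largest CPM difference of all genes that rose, with 6669.7, 2047, 5852 and 5894 CPM with anti-CTLA4 against 51.1, 2.87 and 1.31 CPM in cured tissue (log2 fold change 8.12 ± 1.51, adjusted p = 0.00212). Anti-CTLA4 library 2 was the lowest of its group and cured library 2 the highest of the cured libraries, and the groups did not overlap. Agr2, a protein disulfide isomerase of mucus-secreting cells, gave 40.0, 59.4, 58.7 and 96.3 CPM against 0.360, 0.0495 and 0 CPM (log2 fold change 8.85 ± 0.62, adjusted p = 5.13e-05). Tff2, a trefoil peptide of gastric neck cells, gave 9.09, 17.2, 33.8 and 35.9 CPM against 0.154, 0 and 0 CPM and was at least 160.4-fold higher. The gastrokines, markers of gastric mucous cells, were barely present in either group. Gkn1 was not tested for low counts (0.265, 0.263, 0.285 and 0.885 CPM against 0, 0 and 0), Gkn2 was at least 2.04-fold higher with a call lost without cured library 2, 3 or 4 (adjusted p = 0.0824 to 0.0848), and Gkn3 overlapped between the groups (log2 fold change 1.12 ± 0.76, adjusted p = 0.223).

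Among epithelial keratins and junction genes 28 of 30 were higher and 1 was lower (median 6.04). Epcam, the epithelial adhesion molecule (chromosome 17, 87635979 to 87651129), was 522, 254, 372 and 365 CPM against 5.41, 0.792 and 0.340 CPM, a 174-fold difference (log2 fold change 7.45 ± 0.89, adjusted p = 0.000299). Cdh1, E-cadherin, was 428, 202, 361 and 344 CPM against 4.02, 3.42 and 2.09 CPM (log2 fold change 6.71 ± 0.38, adjusted p = 4e-05). Cldn18, the tight junction claudin of gastric epithelium, rose with a log2 fold change of 8.19 ± 0.56, the intestinal cadherin Cdh17 with 8.44 ± 0.96 and Vsig1, a junction protein of the gastric epithelium, with 7.78 ± 0.67. Krt8, a simple epithelial keratin, was 1302, 809, 1040.0 and 1113 CPM against 20.4, 5.55 and 1.99 CPM. Anti-CTLA4 library 1 was the highest of its group in 28 of these 30 genes and library 2 the lowest in 29. Cured library 2 was the highest cured library in 23 of the 30. The member that went against the list was Itgb6, an integrin subunit of epithelia, at 13.1, 23.9, 19.6 and 17.5 CPM against 33.4, 36.5 and 30.6 CPM (log2 fold change -0.86 ± 0.19, adjusted p = 0.00458).

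Of 27 epithelial transcription factors 26 passed the filter, and of these 24 were higher and 1 was lower (median 6.36, or 6.01 with the 6 genes at or under 3 counts in every cured library set to their bound). Elf3 and Ehf are ETS factors of differentiated epithelium. Elf3 was 183, 73.5, 145 and 157 CPM against 2.37, 0.891 and 1.22 CPM (log2 fold change 6.55 ± 0.47, adjusted p = 5.29e-05) and Ehf had a log2 fold change of 7.28 ± 0.42. Hnf4a, a nuclear receptor of gut and liver epithelium (chromosome 2, 163506808 to 163572910), was 131, 48.5, 89.8 and 89.1 CPM against 0.360, 0 and 0.0486 CPM (log2 fold change 9.34 ± 0.66, adjusted p = 5.13e-05). Grhl2, which maintains epithelial identity, was at least 14.0-fold higher and Pdx1, a factor of antrum, duodenum and pancreas, at least 180.2-fold, each with 3 counts or fewer in every cured library. Ovol1, a zinc finger factor of surface epithelia, fell (log2 fold change -1.20 ± 0.17, adjusted p = 0.000662).

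Receptors and ligands of the ERBB, MET and FGF families were split by member, with 14 of 16 higher and 2 lower (median 2.27, or 1.83 with 3 genes set to their bound). Erbb2, the orphan coreceptor of the family (chromosome 11, 98412470 to 98437716), was 123, 41.8, 87.8 and 81.4 CPM against 14.2, 13.1 and 11.3 CPM (log2 fold change 2.7 ± 0.34, adjusted p = 0.000378), and Erbb3 followed with a log2 fold change of 2.67 ± 0.36. The hepatocyte growth factor receptor Met had a level in cured tissue too, 31.6, 36.1 and 31.7 CPM against 95.7, 57.3, 87.6 and 85.7 CPM, and rose 2.46-fold (adjusted p = 0.000558). Fgfr2 rose by 4.55 ± 0.37 on the log2 scale. The ligands Areg and Nrg1 were at least 48.4-fold and 5.72-fold higher. The members that fell were Fgfr1 (log2 fold change -0.88 ± 0.16) and the ligand Egf, with 8.56, 34.3, 27.2 and 26.0 CPM against 74.4, 92.5 and 78.7 CPM (log2 fold change -1.77 ± 0.38, adjusted p = 0.00412).

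Proliferation genes were higher almost without exception, 36 of 37 with a median of 2.93. Mki67, the nuclear antigen of cycling cells, was 70.9, 44.7, 47.5 and 67.7 CPM against 2.52, 3.76 and 3.16 CPM (log2 fold change 4.19 ± 0.25, adjusted p = 4e-05). Top2a, the topoisomerase of dividing cells, and Cdk1, the mitotic kinase, rose 24.8-fold and 23.5-fold. The largest log2 fold changes of the list were those of Ccnb1 (5.38 ± 0.41), Cdk6 (5.01 ± 0.59) and Cdc20 (5.00 ± 0.31). All 4 anti-CTLA4 libraries exceeded all cured libraries in 36 of the 37 genes, against 34.8% of all genes. The 36 genes separated the groups even in library 2, which held the fewest epithelial counts. Ccne2, a cyclin of the S phase entry, was the member that fell, with overlapping libraries (log2 fold change -0.60 ± 0.23, adjusted p = 0.0469), and its call was lost without anti-CTLA4 library 1, 3 or 4 or cured library 3 or 4 (adjusted p = 0.0876 to 0.155).

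Skeletal muscle contractile genes were lower in 32 of 34 cases and higher in none (median -1.76), and all 34 lay below the cured libraries without overlap, against 31% of all genes. Myh4, the myosin heavy chain of the fastest fibres (chromosome 11, 67238029 to 67260446), was 5628, 33137, 21277 and 18748 CPM against 65927, 66339.9 and 62609 CPM (log2 fold change -1.73 ± 0.59, adjusted p = 0.033). Acta1, skeletal actin, was 4774, 33887, 14940.2 and 17785 CPM against 67319, 55062 and 52464 CPM (log2 fold change -1.71 ± 0.63, adjusted p = 0.0417). Ckm, the muscle creatine kinase, had a log2 fold change of -1.76 ± 0.57. The anti-CTLA4 libraries spread widely here. Over the 34 genes the median level was 13.2% of the cured mean in library 1, 48.5% in library 2, 25.0% in library 3 and 27.5% in library 4, the reverse of their order in epithelial counts at both ends. The largest falls were those of oxidative fibre genes, Mb, myoglobin, with 45.5, 677, 205 and 277 CPM against 2900.2, 2283 and 2278 CPM (log2 fold change -3.05 ± 0.72, adjusted p = 0.00642), the type IIa myosin Myh2 (-2.61 ± 0.52) and the slow troponin Tnni1 (-2.31 ± 0.49). The parvalbumin gene Pvalb (adjusted p = 0.0541) and the calsequestrin gene Casq1 (adjusted p = 0.059) were not called, with the widest spread among anti-CTLA4 libraries, and both were called without library 1 or 2 of that group (adjusted p = 0.00904 to 0.0112). The count of 32 was 21 with all 19 libraries in the fit and 34 with the replicate block or DESeq2. It also rested on single libraries, since 20 of the 34 were lower without anti-CTLA4 library 4 and 22 without cured library 2, with medians of -1.74 and -1.72. The calls of the most abundant genes were among those lost, Myh4 without anti-CTLA4 library 3 or 4 or cured library 2, 3 or 4 (adjusted p = 0.0692 to 0.0917), Acta1 without anti-CTLA4 library 3 or 4 or cured library 2, 3 or 4 (adjusted p = 0.0795 to 0.11) and Ckm without anti-CTLA4 library 3 or 4 or cured library 2, 3 or 4 (adjusted p = 0.0562 to 0.0651). Atp2a1, the calcium pump of fast fibres, and Tnnt3, the fast troponin T, were among the 5 genes with the largest CPM fall, at log2 fold changes of -1.62 ± 0.47 and -1.72 ± 0.45, the former not called without anti-CTLA4 library 4 (adjusted p = 0.0603).

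Nuclear-encoded oxidative phosphorylation genes fell with the muscle genes, 80 of 83 lower and 2 higher (median -1.37). Cox5b, a subunit of cytochrome c oxidase, was 94.6, 181, 106 and 126 CPM against 356, 257 and 309.8 CPM (log2 fold change -1.28 ± 0.23, adjusted p = 0.00173), and the complex I subunits Ndufb3 and Ndufs1 had log2 fold changes of -1.30 ± 0.26 and -1.82 ± 0.31. Library 2 was the highest anti-CTLA4 library in 80 of the 83 genes and library 1 the lowest in 78, the same order as for the contractile genes. Of 25 genes of glycolysis and glucose transport 16 fell and 8 rose (median -1.06). Slc2a4, the insulin-dependent glucose transporter of muscle and fat, was 156, 307, 156 and 163 CPM against 634, 702 and 695 CPM (log2 fold change -1.80 ± 0.26, adjusted p = 0.000666), and Ldhb had a log2 fold change of -2.34 ± 0.33.

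The members that rose were mostly isoforms of enzymes that fell. These pairs were put side by side after their values were seen. For phosphofructokinase, the muscle form Pfkm changed by -1.91 ± 0.36 and the forms Pfkl and Pfkp by 1.72 ± 0.30 and 1.43 ± 0.19. For aldolase, the muscle form Aldoa changed by -1.73 ± 0.45, with 3352, 12202, 7423 and 7062 CPM against 25885, 24172 and 24514 CPM, whereas the form Aldoc changed by 3.57 ± 0.50, with 29.0, 8.01, 13.8 and 15.8 CPM against 2.06, 1.09 and 1.07 CPM. The same opposition held for phosphoglycerate mutase (Pgam2 -2.19 ± 0.70, Pgam1 1.63 ± 0.22), enolase (Eno3 -2.20 ± 0.58, Eno2 1.05 ± 0.15), hexokinase (Hk2 -1.06 ± 0.16, Hk1 1.10 ± 0.17), the glucose transporters Slc2a4 and Slc2a1 (0.74 ± 0.27) and the cytochrome c oxidase subunits Cox6a2 (-1.77 ± 0.35) and Cox6a1 (1.06 ± 0.21), and Cox8b (-1.87 ± 0.47) and Cox8a (0.60 ± 0.13). Cox7a1 and Cox7a2 were the exception, both lower at -2.64 ± 0.70 and -1.38 ± 0.18. All 19 of these genes were called, but the call of Slc2a1 was lost without anti-CTLA4 library 3 or 4 or cured library 2, 3 or 4 (adjusted p = 0.0509 to 0.136) and that of Pgam2 without anti-CTLA4 library 3 or 4 or cured library 2, 3 or 4 (adjusted p = 0.0509 to 0.0655). Eno1 was listed at 0 in every anti-CTLA4 library and could not be compared.

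**Figure D3:**
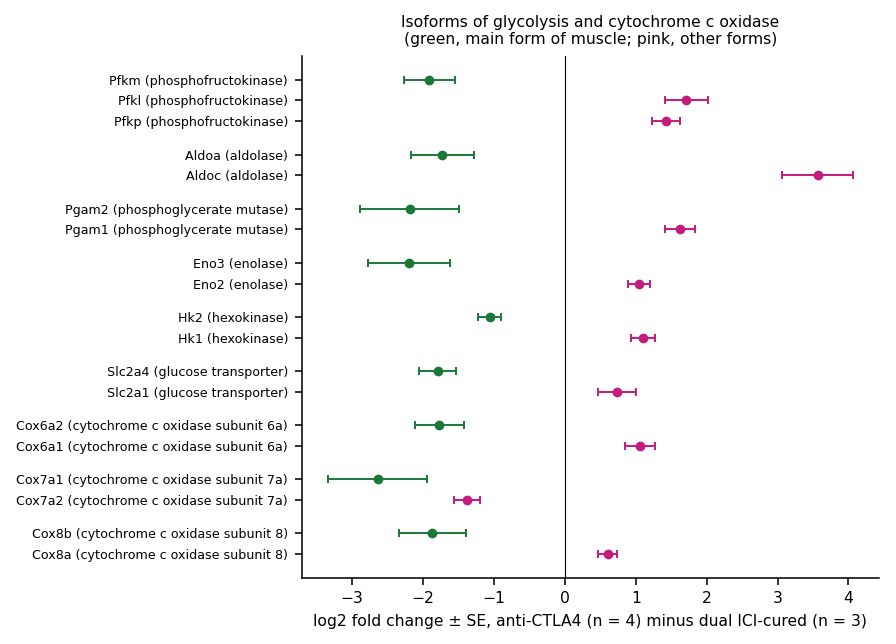
Log2 fold change ± SE (anti-CTLA4, n = 4, minus dual ICI-cured, n = 3) of 19 isoforms of glycolytic enzymes, glucose transporters and cytochrome c oxidase subunits. Green points are the main forms of muscle and pink points the other forms. All green points lie below 0 and all pink points above 0 apart from Cox7a2 at -1.38.

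Genes of muscle atrophy and denervation did not follow the contractile genes as a list, with 6 of 23 higher, 7 lower and a median of 0.05, equal to that of all genes. The calls were 26.1% and 30.4% of the list, against 33.6% and 28.8% of all genes. The ubiquitin ligases of atrophying muscle were split by library. Trim63 was 864, 218, 165 and 142 CPM against 299.9, 250.1 and 271 CPM (adjusted p = 0.645), so library 1 exceeded every cured library and the others lay below, and Fbxo32 overlapped likewise (adjusted p = 0.788). Library 1 was also the library with the lowest share of muscle counts, and without it Trim63 was lower with anti-CTLA4, at a log2 fold change of -0.64 (adjusted p = 0.0105). Without cured library 3, 4 genes of the list fell. Myog, the differentiation factor myogenin, had a log2 fold change of -0.68 ± 0.18, a call that was lost with all 19 libraries at 5wk in the fit (adjusted p = 0.217), when 2 genes of the list fell. The metallothioneins Mt2 and Mt1, which bind zinc and copper, rose by 3.60 ± 0.33 and 2.71 ± 0.44, and Ankrd1, a stretch-responsive ankyrin repeat protein, by 3.07 ± 0.40.

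The other resident tissues moved less than tumor and muscle. Of 20 adipocyte genes 7 fell and 1, Pparg (log2 fold change 1.03 ± 0.17, adjusted p = 0.00125), rose (median -0.85). These are 35% and 5% of the list, against 28.8% lower and 33.6% higher over all genes. Adipoq, adiponectin, was 14.9, 89.5, 34.1 and 72.7 CPM against 117, 83.6 and 83.4 CPM and Plin1, perilipin, 9.39, 64.4, 20.3 and 52.7 CPM against 106, 79.2 and 70.4 CPM, and neither was called (adjusted p = 0.178 and 0.0877), although Plin1 was called without anti-CTLA4 library 2 (adjusted p = 0.0261) and by DESeq2 (adjusted p = 0.0366), and both were called with the replicate block (adjusted p = 0.0471 for Adipoq and 0.0251 for Plin1). Lep, leptin, fell (log2 fold change -2.54 ± 0.89, adjusted p = 0.0344), as did the lipid enzymes Gpd1 (-1.86 ± 0.63) and Dgat2 (-1.84 ± 0.36), but the call of Lep was lost without anti-CTLA4 library 3 or cured library 2 or 3 (adjusted p = 0.0708 to 0.135) and that of Gpd1 without anti-CTLA4 library 3 or 4 or cured library 2, 3 or 4 (adjusted p = 0.0566 to 0.0781). The count of 7 was 4 without anti-CTLA4 library 3 or cured library 2 or 3, 3 with all 19 libraries in the fit and 11 with the replicate block. Of 12 mesothelial genes 4 rose and 2 fell (median 0.37), which is 33.3% and 16.7% of the list. None fell without cured library 2 or 3, and 1 fell when any other library was left out. Msln, mesothelin, was 311, 109, 285 and 192 CPM against 39.7, 22.2 and 9.29 CPM (log2 fold change 3.24 ± 0.55, adjusted p = 0.00143), and the mesothelial factor Wt1 rose 4.35-fold (adjusted p = 0.00278). In contrast Upk3b, another surface marker of mesothelium, overlapped at 24.8, 27.4, 70.3 and 37.1 CPM against 65.9, 51.5 and 15.9 CPM (adjusted p = 0.803). The protease inhibitor Slpi rose by 1.67 ± 0.41 on the log2 scale. Of 18 endothelial genes 7 fell and 1 rose (median -0.41), which is 38.9% and 5.56% of the list. These falls follow TMM scaling. Before it, the list took 0.0805%, 0.101%, 0.0994% and 0.107% of counts with anti-CTLA4. In cured tissue it took 0.0778%, 0.0756% and 0.0813%, so its share of counts was not lower with anti-CTLA4. Pecam1 was not called (adjusted p = 0.31), Cdh5 and Kdr had log2 fold changes of -0.76 ± 0.24 and -0.52 ± 0.14 and the angiopoietin receptor Tek one of -1.11 ± 0.29, whereas Plvap, the diaphragm protein of fenestrated vessels, rose (log2 fold change 0.93 ± 0.18, adjusted p = 0.00265). The call of Cdh5 was lost without anti-CTLA4 library 3 or cured library 2, 3 or 4 (adjusted p = 0.0506 to 0.066) and that of Kdr without cured library 3 (adjusted p = 0.051), and the count of 7 was 4 without any of the same libraries as for Cdh5. With all 19 libraries in the fit, 1 endothelial gene fell and neither Cdh5 (adjusted p = 0.0641) nor Kdr (adjusted p = 0.0671) was called.

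Of 20 fibroblast genes 10 rose and 2 fell (median 0.38). Pdgfra, the receptor of resident fibroblasts, fell (log2 fold change -0.74 ± 0.19, adjusted p = 0.00964), and Dpt, dermatopontin, was 63.2, 339, 169.8 and 225 CPM against 458, 392 and 420.5 CPM without being called (adjusted p = 0.0621), although it was called without anti-CTLA4 library 1 or 2 (adjusted p = 0.011 to 0.0174), by DESeq2 (adjusted p = 0.0206) and with the replicate block (adjusted p = 0.00775). Without anti-CTLA4 library 2, 6 genes of the list fell, and 4 fell without anti-CTLA4 library 1, by DESeq2 or with the replicate block. The matrix protein tenascin C, Tnc, was 406, 266, 185 and 308 CPM against 9.06, 14.9 and 17.0 CPM, 21.3-fold higher (adjusted p = 6.72e-05). Lrrc15, a marker of myofibroblasts in tumors, and Cthrc1 rose by log2 fold changes of 4.29 ± 0.42 and 3.27 ± 0.27. Of 43 collagen genes 14 rose and 5 fell (median 0.29), which is 32.6% and 11.6% of the list against 33.6% and 28.8% of all genes. The fibrillar chain Col3a1 was not called (adjusted p = 0.0616), although it was without anti-CTLA4 library 1 (adjusted p = 0.00848) and with DESeq2 (adjusted p = 0.0183) or the replicate block (adjusted p = 0.0225), and without anti-CTLA4 library 3 only 2 collagens fell. Col1a1, the main chain of type I collagen, was 1993, 3181, 2546 and 3368 CPM against 1336, 1242 and 1444 CPM (log2 fold change 1.05 ± 0.24, adjusted p = 0.00562). Col8a1 (3.61 ± 0.25), Col12a1 (1.98 ± 0.38) and the hemidesmosome collagen Col17a1 (3.90 ± 0.62) rose most on the log2 scale. Of 21 matrix metalloprotease and TIMP genes 13 rose and 2 fell (median 0.90). Timp1, a secreted inhibitor of these proteases (chromosome X, 20870166 to 20874735), was 56.4, 57.0, 48.3 and 62.8 CPM against 4.07, 2.28 and 2.58 CPM (log2 fold change 4.24 ± 0.22, adjusted p = 3.35e-05). Mmp7, matrilysin of epithelial cells, varied widely within the group, 38.0, 3.16, 29.4 and 9.22 CPM against 0.0515, 0 and 0 CPM, and was at least 133-fold higher. Mmp13 was at least 9.58-fold higher, Mmp11 and Mmp19 rose by log2 fold changes of 1.19 ± 0.20 and 0.86 ± 0.20, and Timp3 was not called (adjusted p = 0.0586), although it was without anti-CTLA4 library 1 or 2 (adjusted p = 0.0311 to 0.032) and with DESeq2 (adjusted p = 0.0425), the replicate block (adjusted p = 0.0441), upper quartile scaling (adjusted p = 0.0458) or at least 10 counts in every library (adjusted p = 0.0355).

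Within plasminogen activation and coagulation 12 of 21 genes rose and 3 fell (median 1.11). The protease and its receptor went opposite ways. Plau, urokinase, was 25.5, 48.2, 31.9 and 35.4 CPM against 81.0, 78.5 and 69.8 CPM (log2 fold change -1.12 ± 0.19, adjusted p = 0.00152), while its receptor Plaur was 50.5, 24.0, 34.8 and 38.6 CPM against 5.56, 6.78 and 5.01 CPM (log2 fold change 2.67 ± 0.26, adjusted p = 0.000136). F3, tissue factor, the trigger of coagulation, rose 6.19-fold (adjusted p = 0.000106). F2rl1, a protease-activated receptor of epithelia, rose by 4.44 ± 0.25 on the log2 scale, Serpinb5, an epithelial serpin, by 7.02 ± 0.32, and Proc, protein C, was at least 9.67-fold higher. Serpine2 and F5 also fell (log2 fold changes -1.03 ± 0.28 and -0.85 ± 0.31), F5 with a call that was lost without anti-CTLA4 library 1, 3 or 4 or cured library 3 (adjusted p = 0.0632 to 0.205).

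Among the leukocyte lists, the medians were largest for neutrophils and the chemokines that attract them, lists with members close to 0 in cured tissue. CXCL1, CXCL2, CXCL3 and CXCL5 are secreted ligands of the receptor CXCR2, which guides neutrophils out of blood. The genes Cxcl1, Cxcl2 and Cxcl3 lie on chromosome 5 and rose together, and the 120 bases before their starts are printed because they share a stretch of letters. Capitals mark GGGAATTTCCC, the longest run of bases found in all 3 stretches. Its letters are those of a kappa B element, the kind of site that NF-kB factors bind. The sequences are from RefSeq on GRCm38.p6, plus strand, at chr5:90891125-90891244 for Cxcl1, chr5:90903779-90903898 for Cxcl2 and chr5:90785981-90786100 for Cxcl3.
Cxcl1: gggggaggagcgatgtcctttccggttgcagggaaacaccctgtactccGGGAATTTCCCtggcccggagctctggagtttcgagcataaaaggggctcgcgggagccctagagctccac
Cxcl2: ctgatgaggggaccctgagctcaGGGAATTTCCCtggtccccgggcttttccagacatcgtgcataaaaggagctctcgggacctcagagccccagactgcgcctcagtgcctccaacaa
Cxcl3: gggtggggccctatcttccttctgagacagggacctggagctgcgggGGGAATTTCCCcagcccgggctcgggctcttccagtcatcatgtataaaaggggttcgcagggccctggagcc
The run of 11 bases starts 71 bases before the start of Cxcl1, 97 before that of Cxcl2 and 73 before that of Cxcl3, and each promoter holds it once. Among 32851 promoters of 300 bases in the same RefSeq table (250 before the start and 50 after it), 14 (0.0426%) hold this run on either strand. A match of letters is a description and no evidence of binding. No promoter of Cxcl5 is shown.

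Of 14 neutrophil-attracting chemokines, with their receptor and inducers, 10 passed the filter on low counts, and these 10 were higher, a count fixed in part by the filter since 4 of them had 3 counts or fewer in every cured library (median 4.57, or 3.51 with 4 genes set to their bound). Cxcl5 (chromosome 5, 90759360 to 90761624) was 133, 64.8, 83.5 and 125 CPM against 0.772, 0.0495 and 0.195 CPM, a 300.4-fold difference (log2 fold change 8.23 ± 0.58, adjusted p = 5.13e-05). Cxcl3 was 5.86, 4.29, 4.03 and 6.80 CPM against 0 counts in every cured library and so at least 35-fold higher. Cxcl1 was 1.91, 1.17, 1.59 and 2.90 CPM against 0.360, 0.545 and 0.292 CPM (log2 fold change 2.23 ± 0.43, adjusted p = 0.00239), and Cxcl2 had a log2 fold change of 3.42 ± 0.52. The receptor Cxcr2 (chromosome 1, 74153989 to 74161246) was 9.24, 5.19, 4.15 and 6.19 CPM against 0.206, 0.0495 and 0.486 CPM (log2 fold change 4.61 ± 0.56, adjusted p = 0.00032). Il23a, a cytokine subunit upstream of IL17, was at least 12.0-fold higher. Of 16 neutrophil genes 11 passed the same filter and 10 of these were higher (median 4.51, or 3.96 with 2 genes set to their bound). Without a filter 10 of 14 and 11 of 16 were higher. With at least 10 counts in every library, 1 chemokine gene and 5 neutrophil genes remained, and the neutrophil median was 1.76. S100a8 and S100a9 encode calprotectin, the main cytosolic protein of neutrophils. S100a8 was 20.9, 12.3, 9.74 and 15.3 CPM against 0, 0.396 and 0.778 CPM (log2 fold change 5.18 ± 0.64, adjusted p = 0.000356), and S100a9 had a log2 fold change of 4.51 ± 0.49. Trem1, an activating receptor of neutrophils and monocytes, was at least 15.5-fold higher. Ltf, lactoferrin, was 43.1, 12.6, 30.8 and 29.4 CPM against 0.309, 0.396 and 0.0973 CPM (log2 fold change 6.74 ± 0.59, adjusted p = 9.07e-05), although epithelia express it too. The granule genes Mpo, Camp and Ngp of immature neutrophils were too low to be tested. The gene of the stained antigen Ly6G has no row in the table.

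In the IL1 family 14 of 17 genes were higher and none was lower (median 1.82). Il1b, the inflammasome-processed cytokine, was 5.21, 12.7, 11.7 and 12.8 CPM against 0.154, 0.396 and 0.584 CPM (log2 fold change 4.77 ± 0.49, adjusted p = 0.000161). Il1a was at least 8.29-fold higher. The antagonist of the same receptor, Il1rn, rose further on the log2 scale, with 79.8, 35.4, 43.8 and 57.0 CPM against 1.91, 1.09 and 1.22 CPM (log2 fold change 5.26 ± 0.37, adjusted p = 5.15e-05). Among TNF ligands, receptors and NF-kB genes 21 of 24 were higher and none was lower (median 1.22). Tnf was 10.0, 5.76, 6.18 and 7.02 CPM against 0.721, 0.297 and 0.535 CPM (log2 fold change 3.80 ± 0.35, adjusted p = 0.000111). Its receptor Tnfrsf1a and the NF-kB subunit Nfkb2 rose 2.12-fold and 2.43-fold (adjusted p = 0.000185 and 0.000245). The decoy receptor osteoprotegerin, Tnfrsf11b, and its ligand Tnfsf11 rose by log2 fold changes of 3.84 ± 0.23 and 2.80 ± 0.67.

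Of 20 macrophage genes 12 rose and none fell (median 0.93). Adgre1, the F4/80 antigen, was 43.3, 85.0, 49.4 and 48.0 CPM against 37.8, 54.7 and 45.3 CPM (adjusted p = 0.323) and Csf1r, the receptor that sustains macrophages, 153, 273, 198 and 146 CPM against 147, 182 and 168 CPM (adjusted p = 0.429), both overlapping. Cd68 (chromosome 11, 69664213 to 69666153) rose 1.68-fold, with 44.7, 49.6, 37.2 and 40.4 CPM against 23.1, 26.8 and 26.6 CPM (adjusted p = 0.00123). Mrc1, the mannose receptor of alternatively activated macrophages (chromosome 2, 14229392 to 14332057), was 143, 239, 171 and 145 CPM against 108, 132 and 135 CPM. Its libraries did not overlap, yet it was not called (log2 fold change 0.48 ± 0.20, adjusted p = 0.063), although it was without anti-CTLA4 library 1 (adjusted p = 0.029) and among genes with at least 10 counts in every library (adjusted p = 0.0381). Spp1, osteopontin (chromosome 5, 104435118 to 104441050), was 269.9, 353, 477 and 505 CPM against 18.2, 6.59 and 7.44 CPM (log2 fold change 5.22 ± 0.46, adjusted p = 9.29e-05), although tumor epithelium and other cells also express it. Arg1, arginase 1, was 51.6, 13.4, 23.6 and 41.2 CPM against 2.47, 2.33 and 1.75 CPM (log2 fold change 3.89 ± 0.50, adjusted p = 0.000411), and the endotoxin coreceptor Cd14 had a log2 fold change of 2.51 ± 0.15. Of 12 monocyte genes and ligands of Ccr2, the receptor of inflammatory monocytes, 9 rose and none fell (median 2.14). Ccr2 itself was not called, with 24.0, 92.1, 46.0 and 40.5 CPM against 39.6, 43.2 and 39.3 CPM (adjusted p = 0.504), while its ligand Ccl2 was 10.1, 15.9, 11.9 and 16.6 CPM against 3.71, 2.03 and 2.09 CPM (log2 fold change 2.38 ± 0.29, adjusted p = 0.000321). Ly6c2 rose by 0.98 ± 0.31 on the log2 scale, Plac8 by 3.55 ± 0.35 and the chemokine Ccl3 by 2.95 ± 0.72, and Ccl4 was at least 5.71-fold higher. Ly6c2 shares sequence with a near copy, so its count is uncertain, and its call was lost without anti-CTLA4 library 3 or 4 or cured library 2 or 3 (adjusted p = 0.0598 to 0.079).

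T cell genes were low in all 7 libraries, at most 7.10 CPM in the list. Of 16 tested 8 rose and 1 fell (median 0.95). Cd3e, a chain of the T cell receptor complex, was 2.59, 3.39, 2.73 and 2.23 CPM against 0.463, 0.693 and 1.65 CPM (log2 fold change 1.53 ± 0.42, adjusted p = 0.0127) and Cd3d rose by 1.68 ± 0.36, while Cd3g overlapped (adjusted p = 0.0854), and the call of Cd3e was lost without cured library 3 (adjusted p = 0.0537). The coreceptors were examined one by one. Cd4 (chromosome 6, 124864692 to 124888221) was 3.88, 4.63, 4.03 and 3.48 CPM against 1.49, 1.39 and 1.41 CPM (log2 fold change 1.48 ± 0.20, adjusted p = 0.000566), without overlap. Cd8a (chromosome 6, 71373427 to 71379173) was 3.65, 2.29, 4.19 and 2.93 CPM against 3.09, 1.19 and 1.75 CPM and overlapped, since cured library 2 exceeded anti-CTLA4 libraries 2 and 4 (log2 fold change 0.70 ± 0.36, adjusted p = 0.122). It was called without cured library 2 (adjusted p = 0.0291), at a log2 fold change of 1.15. Cd8b1 was not called either (log2 fold change 0.59 ± 0.39, adjusted p = 0.22), so a difference in these 2 genes was not detectable with all 4 and 3 mice. Cd5 and Cd6, surface regulators of T cell receptor signalling, rose by 2.04 ± 0.35 and 1.81 ± 0.33. Cd28, the costimulatory receptor that CTLA4 opposes, was the member that fell, with 1.71, 4.4, 2.79 and 2.38 CPM against 5.41, 6.69 and 7.10 CPM (log2 fold change -1.19 ± 0.31, adjusted p = 0.00998), and its call was lost with all 19 libraries in the fit (adjusted p = 0.106).

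Of 12 cytotoxic and NK cell genes 7 rose and none fell (median 1.18). Gzmb, granzyme B (chromosome 14, 56258838 to 56262260), was 0.706, 0.828, 0.824 and 1.01 CPM against 0.515, 0.446 and 0.292 CPM, 2.01-fold higher (adjusted p = 0.0278), Prf1, perforin, had a log2 fold change of 1.49 ± 0.33 and Gzma of 2.35 ± 0.54. Klrb1c, NK1.1, was not called (adjusted p = 0.0535), although it was without anti-CTLA4 library 2 or cured library 3 (adjusted p = 0.0262 to 0.0323) and with upper quartile scaling (adjusted p = 0.0496). The count of 7 was 4 without anti-CTLA4 library 4 or cured library 3 and 3 without cured library 4, and the call of Gzmb was lost without anti-CTLA4 library 4 or cured library 3 or 4 (adjusted p = 0.0635 to 0.116). Eomes, a factor of memory, exhausted and NK cells (chromosome 9, 118478212 to 118486132), was 2.38, 2.37, 2.00 and 2.41 CPM against 0.154, 0 and 0 CPM and so at least 15.3-fold higher. Regulatory T cell and checkpoint genes had 11 of 15 members higher and none lower (median 1.70). Foxp3, the defining factor of regulatory T cells (chromosome X, 7573644 to 7595245), was 3.00, 5.04, 4.22 and 2.69 CPM against 0.103, 0.446 and 0.535 CPM, 10.1-fold higher (log2 fold change 3.34 ± 0.48, adjusted p = 0.000678). Ctla4, the target of the antibody in both groups (chromosome 1, 60887000 to 60915832), was 1.77, 1.96, 3.71 and 1.04 CPM against 0.412, 0.248 and 0.389 CPM (log2 fold change 2.58 ± 0.52, adjusted p = 0.00301), and Pdcd1, the gene of PD1 (chromosome 1, 94038305 to 94052553), was 2.47, 2.71, 4.06 and 2.90 CPM against 0.309, 0.149 and 0.292 CPM (log2 fold change 3.58 ± 0.36, adjusted p = 0.000146). Havcr2, TIM3, found on exhausted T cells and myeloid cells, rose by 3.13 ± 0.34. These 4 checkpoint and regulatory genes did not overlap between the groups. The same held for 10 of the 15 members tested, and 34.8% of all genes lay higher without overlap. The 4 were named as first members or for large changes, so no contrast with Cd8a is drawn from them. Of 11 B cell and plasma cell genes 6 rose and none fell (median 0.70). Ms4a1, the CD20 antigen of B cells, overlapped (adjusted p = 0.828), while Cd79a rose by 1.35 ± 0.46 and the joining chain gene Jchain by 1.40 ± 0.42, with calls lost without anti-CTLA4 library 1 or 4 or cured library 2, 3 or 4 (adjusted p = 0.0573 to 0.0996) for Cd79a and without cured library 3 or 4 (adjusted p = 0.0618 to 0.072) for Jchain. The count of 6 was 3 without cured library 3 or 4 and with the replicate block, which called neither Cd79a (adjusted p = 0.0833) nor Jchain (adjusted p = 0.0682). The lymphoid chemokine Cxcl13 was 28.5, 7.11, 10.6 and 7.02 CPM against 2.21, 1.04 and 0.730 CPM (log2 fold change 3.33 ± 0.66, adjusted p = 0.00286), and the lymph node homing receptor Ccr7 had a log2 fold change of 3.13 ± 0.40.

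Antigen presentation genes moved by small steps. MHC class I and loading genes were higher in 17 of 18 cases with none lower, but with a median of only 0.82. H2-K1, a classical class I chain, was 1049, 977, 1096 and 1011 CPM against 458, 335 and 437 CPM (log2 fold change 1.33 ± 0.17, adjusted p = 0.000367), H2-D1 and B2m rose 1.64-fold and 1.53-fold, and the largest changes were those of Nlrc5, the class I transactivator (1.59 ± 0.14), and the immunoproteasome subunit Psmb8 (1.41 ± 0.17). Class II genes had 5 of 11 members higher and none lower (median 0.67). H2-Aa and H2-Ab1 overlapped (adjusted p = 0.189 and 0.162), with anti-CTLA4 library 1 below every cured library in both, and were called without it (adjusted p = 0.0147 and 0.00901), when 8 of the 11 were higher, as they were with the replicate block (adjusted p = 0.0322 for H2-Aa and 0.0162 for H2-Ab1). The count of 5 was 3 without cured library 2 or 4. Cd74, the invariant chain, and Ciita, the class II transactivator, rose by 0.80 ± 0.24 and 1.06 ± 0.25 on the log2 scale, H2-Oa by 1.77 ± 0.55 and H2-Eb2, whose count may share reads with near copies, by 2.75 ± 0.46. The call of Cd74 was lost without cured library 2, 3 or 4 (adjusted p = 0.0547 to 0.0663) and that of H2-Oa without cured library 2 or 4 (adjusted p = 0.0813 to 0.0874). H2-Q6 and H2-Q7 were listed at 0 in all 7 libraries.

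Interferon genes did not move as 1 set. Of 20 genes of the interferon gamma response 9 rose and 1 fell (median 0.39), which is 45% and 5% of the list. Irf1, a transcription factor of this response, rose 2.11-fold (adjusted p = 0.000257). The chemokines that attract CXCR3-bearing T cells stood out, Cxcl9 (chromosome 5, 92321347 to 92328079) with 15.8, 43.2, 34.6 and 25.0 CPM against 4.69, 2.23 and 3.02 CPM (log2 fold change 3.16 ± 0.40, adjusted p = 0.000406) and Cxcl10 with a log2 fold change of 3.17 ± 0.25. Gbp8, a guanylate binding protein, rose by 2.64 ± 0.22, and Irgm2, a GTPase of the same response, fell (log2 fold change -0.52 ± 0.18, adjusted p = 0.0301) with a call lost without anti-CTLA4 library 4 or cured library 2 or 4 (adjusted p = 0.055 to 0.118). Of 21 type I interferon response genes 8 rose and 4 fell (median 0.24), or 38.1% and 19.0% against 33.6% and 28.8% of all genes. Mx1 and Isg15 overlapped (adjusted p = 0.997 and 0.616). Oas3, a sensor of double-stranded RNA, and the related Oasl1 rose, with log2 fold changes of 1.84 ± 0.44 and 1.65 ± 0.28. In contrast Ifit3 was 8.80, 15.2, 10.9 and 9.70 CPM against 32.0, 18.8 and 31.6 CPM (log2 fold change -1.30 ± 0.24, adjusted p = 0.0021), Ifit1 changed by -0.52 ± 0.16, and Rsad2 and Usp18 were the other members that fell. Their calls were lost without anti-CTLA4 library 3 or 4 or cured library 2 or 4 (adjusted p = 0.0584 to 0.104) for Ifit1, without anti-CTLA4 library 4 or cured library 4 (adjusted p = 0.0688 to 0.13) for Rsad2 and without anti-CTLA4 library 2, 3 or 4 or cured library 2 or 4 (adjusted p = 0.0512 to 0.115) for Usp18, so the count of 4 was 1 without anti-CTLA4 library 4 or cured library 4 and with all 19 libraries in the fit.

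Of 28 genes of the IL6 family, JAK and STAT 16 rose and 3 fell (median 0.49). Il6 (chromosome 5, 30013114 to 30019981) was 0.677, 0.828, 1.11 and 1.46 CPM against 0.206, 0.347 and 0.0486 CPM (log2 fold change 2.32 ± 0.56, adjusted p = 0.00711). The kinases and the transcription factor of the pathway changed by small steps, and the fall of Jak1 depended on the TMM scaling. Jak1 was 145, 203, 163 and 178 CPM against 218, 227 and 220.0 CPM and fell (log2 fold change -0.37 ± 0.13, adjusted p = 0.0386), Jak2 was 94.7, 82.0, 88.1 and 87.0 CPM against 70.7, 74.4 and 74.6 CPM and rose (log2 fold change 0.26 ± 0.09, adjusted p = 0.0319), and Stat3 was 219, 237, 253 and 276 CPM against 200.4, 174 and 204 CPM and rose (log2 fold change 0.35 ± 0.13, adjusted p = 0.0391). These small changes rested on single libraries, with calls lost without anti-CTLA4 library 1, 3 or 4 or cured library 2, 3 or 4 (adjusted p = 0.0617 to 0.102) for Jak1, without anti-CTLA4 library 1, 3 or 4 or cured library 2, 3 or 4 (adjusted p = 0.058 to 0.0983) for Jak2 and without anti-CTLA4 library 3 or 4 or cured library 2, 3 or 4 (adjusted p = 0.0735 to 0.145) for Stat3. Transcript levels say nothing of phosphorylation. The cytokines Clcf1 and Il11 rose by log2 fold changes of 2.89 ± 0.28 and 2.13 ± 0.45, and the other members that fell were Lifr (-0.70 ± 0.19) and Stat5b (-1.38 ± 0.33). Without anti-CTLA4 library 2, 6 genes of the list fell, and 5 by DESeq2. Of 24 TGF-beta and activin genes 8 rose and 5 fell (median 0.13), or 33.3% and 20.8% against 33.6% and 28.8% of all genes. Tgfb1 rose 1.93-fold (adjusted p = 0.000251), Tgfbr1 was not called (adjusted p = 0.0978) and Smad3 changed by -0.54 ± 0.18, a call lost without anti-CTLA4 library 3 or cured library 2, 3 or 4 (adjusted p = 0.0576 to 0.0767). With any single cured library left out, 2 genes of the list fell, and 3 without anti-CTLA4 library 3 or with all 19 libraries in the fit. Ltbp2, a latent TGF-beta binding protein of matrix, was 125, 59.8, 79.5 and 97.8 CPM against 3.71, 2.67 and 2.19 CPM (log2 fold change 4.99 ± 0.33, adjusted p = 4.67e-05), the activin subunit Inhba rose by 2.82 ± 0.56 and Bmp7 changed by -2.25 ± 0.53 on the log2 scale.

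Of 21 prostaglandin and arachidonate genes 13 rose and 2 fell (median 0.75). Ptgs2, the inducible cyclooxygenase, was 7.36, 8.77, 11.3 and 17.9 CPM against 1.08, 0.941 and 0.778 CPM (log2 fold change 3.59 ± 0.37, adjusted p = 0.000166), and the constitutive form Ptgs1 rose 3.21-fold (adjusted p = 0.00046), while Ptges, a prostaglandin E synthase, was not called (adjusted p = 0.256). Pla2g10 was at least 24.6-fold higher, and Pla2g2a and Ptgds had log2 fold changes of 4.15 ± 0.88 and 4.14 ± 0.70. The lipoxygenases Alox12 and Alox15 fell (-0.78 ± 0.21 and -1.51 ± 0.41), calls that were lost without cured library 4 (adjusted p = 0.0593) and without cured library 3 (adjusted p = 0.0582) respectively. Of 18 genes of hypoxia and angiogenic factors 7 rose and 6 fell (median 0.27). These are 38.9% and 33.3% of the list, near the 33.6% and 28.8% of all genes. Car9, a carbonic anhydrase induced by hypoxia and also present in gastric epithelium, was 68.5, 22.7, 33.3 and 41.7 CPM against 4.63, 4.21 and 3.45 CPM (log2 fold change 3.34 ± 0.39, adjusted p = 0.000264). Hif1a rose 1.72-fold (adjusted p = 0.00101) and Ero1l by 1.27 ± 0.25 on the log2 scale. Vegfa was 158, 197, 157 and 174 CPM against 266, 277 and 279 CPM (log2 fold change -0.68 ± 0.12, adjusted p = 0.00156). A fall of this size can depend on the TMM scaling. Vegfb changed by -1.59 ± 0.23.

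**Figure D4:**
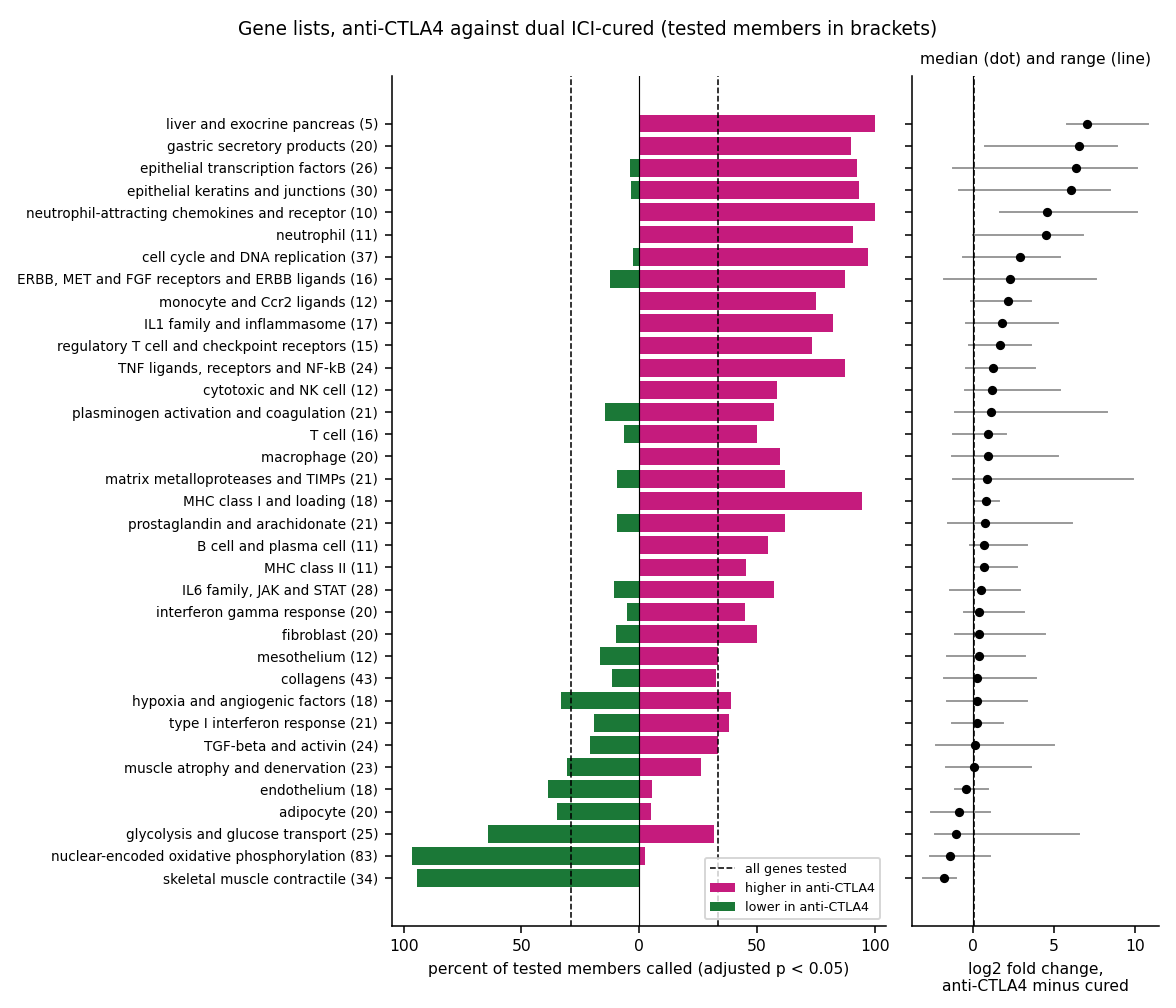
Left, percent of tested members of each of 35 gene lists called higher (pink, to the right) or lower (green, to the left) with anti-CTLA4, with the 33.6% and 28.8% of all genes tested as broken lines. Right, the median (dot) and range (line) of the members' log2 fold changes. Liver and pancreas (5 genes tested), gastric, epithelial, neutrophil and cell cycle lists stand at the top with medians of at least 2.93, and the oxidative phosphorylation and skeletal muscle lists at the bottom with medians of -1.37 and -1.76.

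A list of liver and exocrine pancreas genes was included to look for neighbouring organs. Only 5 of its 17 genes passed the filter on low counts, through the anti-CTLA4 libraries, so their calls are no support for the list. Alb, albumin, was 0, 0.376, 0.0634 and 0.0915 CPM against 0.824, 0.248 and 0.340 CPM, Prss2, a pancreatic trypsinogen, was 0 in all libraries but anti-CTLA4 library 4 (0.153 CPM), and neither was tested. The 5 that passed included the apolipoproteins Apob (8.17 ± 0.75) and Apoa1 (at least 28.5-fold higher), the urea cycle enzyme Cps1 (7.00 ± 0.67) and Ttr, transthyretin (at least 55.1-fold higher), which intestinal epithelium can also express.

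The 10 called genes with the largest fitted rise had 0 counts in all cured libraries. By the bounds they were at least 72.1-fold (the noncoding RNA Lincenc1), 71.2-fold (Guca2b, uroguanylin of the gut), 55.1-fold (Ttr), 50.2-fold (Vstm2l), 42.4-fold (the cytochrome P450 gene Cyp2b10), 40.6-fold (Cwh43), 40.2-fold (Slc26a9, an anion transporter of gastric epithelium), 38.5-fold (the sulfate transporter Slc13a1), 35.6-fold (Asz1) and 35-fold (Cxcl3) higher. The 10 largest falls were smaller and concerned genes of low level in cured tissue. Tmem28 had a log2 fold change of -4.06 ± 0.86. Pgr, the progesterone receptor, was 0.0588, 1.28, 0.190 and 0.458 CPM against 8.13, 2.38 and 9.39 CPM (log2 fold change -3.78 ± 0.80, adjusted p = 0.00396), and Oxtr, the oxytocin receptor, was 0.324, 2.07, 0.729 and 1.01 CPM against 14.8, 4.8 and 12.4 CPM (log2 fold change -3.39 ± 0.58, adjusted p = 0.00147). Cured library 3 was the lowest cured library for both hormone receptors. Ostn, osteocrin, a peptide secreted by muscle, was 0.235, 1.43, 0.285 and 2.20 CPM against 8.75, 13.4 and 15.8 CPM (log2 fold change -3.62 ± 0.67, adjusted p = 0.00208). The others were Tecrl (-3.75 ± 0.35), the ion channel gene Cnga3 (-3.46 ± 0.75), Prss55 (-3.38 ± 0.63), Prss51 (-3.35 ± 0.47), Crip3 (-3.28 ± 0.80) and the histone gene Hist1h3i (-3.23 ± 0.33). Prss55 and Prss51 overlap on opposite strands of chromosome 14 and Hist1h3i has near-identical copies, so these 3 counts are uncertain. Among the genes with the largest CPM rise were also the elongation factor Eef1a1, 3929, 2941, 3588 and 3425 CPM against 1645, 1463 and 1496 CPM (log2 fold change 1.18 ± 0.20, adjusted p = 0.00158), and Clu, clusterin, a secreted chaperone, 1154, 1378, 1302 and 1799.7 CPM against 242, 231 and 220.0 CPM (log2 fold change 2.60 ± 0.20, adjusted p = 6.44e-05).

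The reference groups placed these differences. Against 5 untreated mice no gene of 15781 was called by edgeR (0%; 128 had an unadjusted p under 0.05), and DESeq2 called none either. Against 5 anti-PD1 mice, the cured mouse of that group included, no gene of 15736 was called (0%; 149 unadjusted), and none by DESeq2. Without anti-PD1 library 5 the count stayed at 0, with 413 genes at an unadjusted p under 0.05 and a smallest adjusted p of 0.316. Against the 2 dual ICI-uncured mice no gene of 16002 was called (0%; 1071 unadjusted), whereas DESeq2 called 193, of which 117 were higher with anti-CTLA4 and 76 lower. A comparison without calls does not show that the groups were alike, and these comparisons share the anti-CTLA4 libraries.

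Side by side, the levels show where the anti-CTLA4 libraries lay. Cxcl5 ranged from 34.7 to 146 CPM in untreated mice (median 88.3) and was 109 and 123 CPM in the uncured mice, so the anti-CTLA4 range of 64.8 to 133 CPM overlapped both. Spp1 ranged from 152 to 865 CPM in untreated mice (median 496) and was 410.0 and 502 CPM in the uncured mice. In anti-PD1 mice both genes had 1 library near the cured level, at 0.778 CPM for Cxcl5 and 10.7 CPM for Spp1, and medians of 107 and 447 CPM. The lymphocyte genes were ordered differently. Cd8a was 8.61 and 9.10 CPM in the uncured mice, above all 4 anti-CTLA4 libraries, and had medians of 3.32 CPM in untreated and 2.75 CPM in anti-PD1 mice (log2 fold change of anti-CTLA4 minus uncured -1.43, adjusted p = 0.436). Cd4 was 8.35 and 8.99 CPM in the uncured mice, also above all anti-CTLA4 libraries (-1.11, adjusted p = 0.436). Pdcd1 was 5.80 and 8.66 CPM there (-1.25, adjusted p = 0.442), and Foxp3, at 5.26 and 5.28 CPM, lay just above the highest anti-CTLA4 library (-0.49, adjusted p = 0.775). None of these 4 differences from the uncured mice passed edgeR's threshold.

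**Figure D5:**
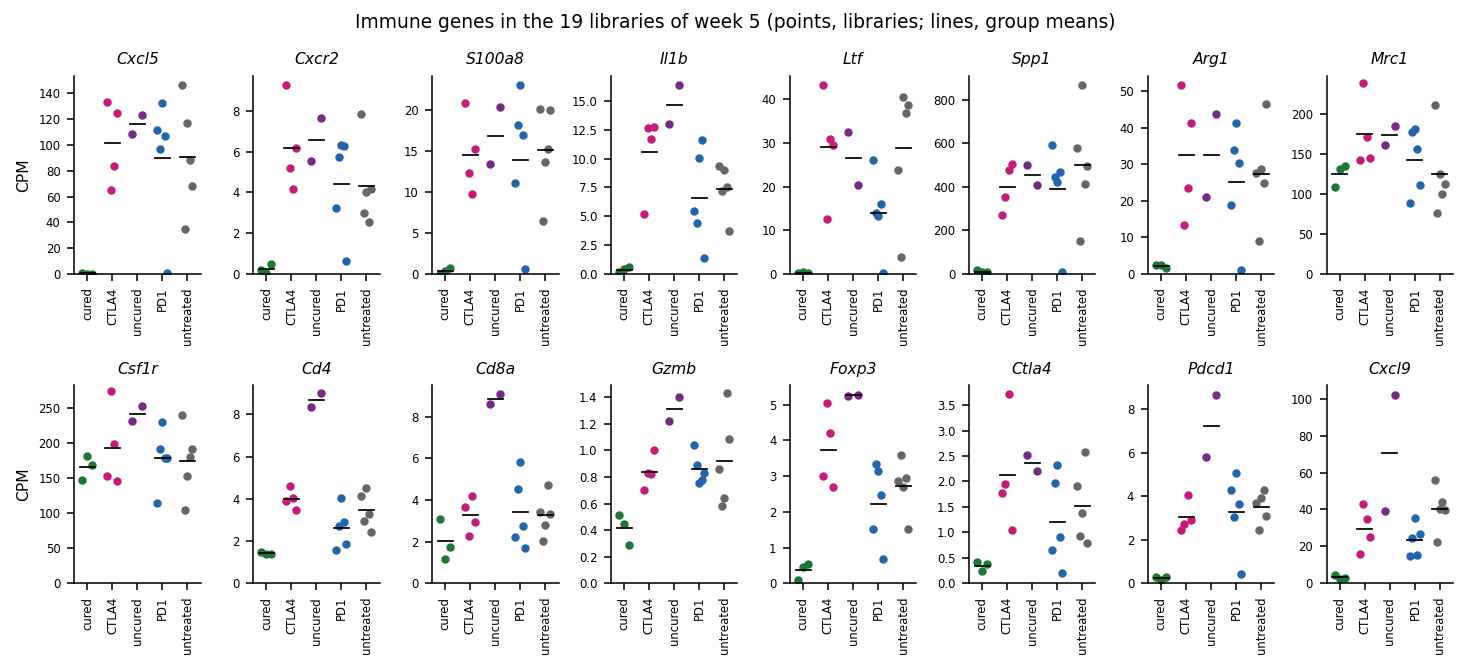
CPM of 16 immune genes in the 19 libraries at 5wk, by group (cured, anti-CTLA4, dual ICI-uncured, anti-PD1, untreated). Points are libraries and lines are group means, on linear axes that start at 0. Cxcl5, S100a8 and Spp1 are near 0 in the cured libraries and in 1 anti-PD1 library, whereas the groups overlap in Csf1r, and Cd4 and Cd8a are highest in the 2 uncured libraries.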

How the data were processed

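RNA of stripped peritoneum was sequenced as paired-end reads by the authors, who deposited 1 table of raw counts per gene with 24421 rows and 29 columns, of which 20929 rows hold a count. The submitters' processing notes name STAR 2.7.0f, featureCounts 1.6.4 and mm10, while the study's methods name HTSeq for counting. The annotation and the strand setting are not given in the sources used here, so overlapping genes and near-identical copies are uncertain. Positions are from GENCODE vM21 on GRCm38 by symbol (23334 of 24421, 95.5%).

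The counts of the 7 libraries (27574648 to 30012698 per library) were analysed in edgeR 4.0.16 (R 4.3.3): filterByExpr by group, TMM factors, the quasi-likelihood test with Benjamini-Hochberg adjustment, and only the groups compared in each fit. Each library is a separate mouse. TMM factors were 0.95 to 1.23 with anti-CTLA4 and 0.69 to 0.72 in cured tissue. CPM used the factors of the 19 libraries at 5wk. Shares of lists were compared by exact permutation tests (scipy 1.17.1). The script was tested on simulated data. DESeq2 1.42.0, other normalizations and filters, a replicate block, leaving out each library, and glmTreat (the test beyond 2-fold) were the alternatives.

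The members and the 35 gene lists were chosen with earlier results of these data known. Named were the 10 called genes per direction with the largest fold change and no overlap, at a mean of at least 1 CPM (predicted genes left out), the 5 per direction with the largest CPM difference, of each list the first 3 members and the 3 called members that changed most, members called against their list, and the genes the study stains or targets. The isoform pairs, Cd4, Cxcl2, Mpo, Camp and Ngp were named after their values were seen. A few genes that this rule names are not reported here. Where every library of a group held 3 counts or fewer, a fold is a bound.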

Additional observations from a re-analysis of the deposited data

Results flagged for a closer look

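Within the group of 4 anti-CTLA4 libraries, 295 values (CPM of each gene named and percent of counts of each list) were examined for a library that stood apart from the other 3 by Dixon's 95% criterion, and 18 did so (6.1%). Chance gives about 1 in 20. The groups of 3 cured libraries were too small for this.

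Library 1 was the lowest for Il1b at 5.21 CPM (next library 11.7 CPM), Irgm2 at 37.2 CPM (next library 51.8 CPM) and Plvap at 93.7 CPM (next library 127 CPM). Library 1 was the highest for Cdc20 at 40.1 CPM (next library 23.1 CPM), Cwh43 at 13.0 CPM (next library 4.12 CPM), Cxcl13 at 28.5 CPM (next library 10.6 CPM), Trim63 at 864 CPM (next library 218 CPM), Usp18 at 7.30 CPM (next library 5.46 CPM) and the muscle atrophy and denervation list at 0.374% of counts (next library 0.175%). Library 2 was the lowest for the matrix metalloproteases and TIMPs list at 0.174% of counts (next library 0.218%) and the TGF-beta and activin list at 0.133% of counts (next library 0.147%). Library 2 was the highest for Adgre1 at 85.0 CPM (next library 49.4 CPM), Ccne2 at 2.82 CPM (next library 2.09 CPM) and Slc2a4 at 307 CPM (next library 163 CPM). Library 3 was the lowest for Eomes at 2.00 CPM (next library 2.37 CPM). Library 4 was the highest for Gkn1 at 0.885 CPM (next library 0.285 CPM), Prss2 at 0.153 CPM (next library 0 CPM) and Tmem28 at 0.305 CPM (next library 0.0376 CPM).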

How the results depend on the processing

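Of 9785 genes called against cured tissue, 82.1% to 99.3% were also called under every alternative except the test beyond 2-fold, which called 2447. The counts were 10211 with DESeq2, 9807 with DESeq2's size factors, 9770 with upper quartile scaling, 9731 without a filter, 8501 with at least 10 counts in every library, 8466 with all 19 libraries in the fit, 9736 without the muscle genes, 9725 without the epithelial genes, and from 8149 (without cured library 4) to 10477 (without anti-CTLA4 library 2) when 1 library was left out. Same-numbered libraries deviated together with correlations of -0.0102, 0.144 and 0.00564, so the numbers were not taken as pairs, and with the replicate block 9348 genes were called. The filter of 10 counts in every library removes genes absent from cured tissue, by its construction, and left 5 of 18 calls in gastric secretory products, 13 of 28 in keratins and junctions, 1 of 10 in neutrophil-attracting chemokines and 4 of 10 in neutrophil genes. Under the test beyond 2-fold, 9 of 34 muscle genes and 14 of 83 oxidative phosphorylation genes were lower, while 28 of 30 keratin and junction genes were higher.

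The comparisons with untreated and anti-PD1 mice gave 0 calls in all alternatives run, the replicate block included, and that with dual ICI-uncured mice gave 0 in all but DESeq2, which called 193. No paired analysis was possible against the uncured mice because the groups share only the number 1. The difference of the muscle share was between -17.04 and -12.6 percentage points with 1 library left out, and that of the epithelial share between 1.10 and 1.52. The epithelial share differed by 0.699 without Dmbt1. Directions that turned belonged to values that were not called. With 1 library left out, the log2 fold change lay between -0.37 and 0.12 for Fbxo32, -0.64 and 0.61 for Trim63, -0.58 and 0.24 for Upk3b, -0.0132 and 0.33 for Csf1r, -0.16 and 0.55 for Ccr2, -0.51 and 0.35 for Ms4a1, -0.0866 and 0.135 for Mx1, -0.471 and 0.0497 for Isg15, -1.22 and 4.52 for Col10a1 and, for the median of the atrophy list, -0.24 and 0.12. With the replicate block Trim63 was -0.67 (adjusted p = 0.00898), Upk3b 0.14 and the atrophy median -0.24. With DESeq2 Mx1 was -0.0212, with its size factors -0.0247, and without the muscle genes Mx1 was -0.00056. The cause was not tested.

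Among the genes named, other settings changed these calls. The fit of all 19 libraries at 5wk, anti-PD1 library 5 included, shared 1 estimate of the spread. In it 22 calls were lost, those of Acta1, Ccne2, Cd28, Cd74, Cdh5, Ckm, F5, Gpd1, Ifit1, Irgm2, Jak1, Jak2, Jchain, Kdr, Lep, Myh4, Myog, Pgam2, Rsad2, Smad3, Stat3 and Usp18 (adjusted p = 0.0591 to 0.328). The replicate block lost those of Ccne2, Cd79a, F5, Gzmb, Irgm2, Jak1, Jak2, Jchain, Rsad2 and Slc2a1 (adjusted p = 0.0546 to 0.135) and gained those of Adipoq, Casq1, Col3a1, Dpt, H2-Aa, H2-Ab1, Plin1, Pvalb and Timp3 (adjusted p = 0.00417 to 0.0471), beside that of Trim63. DESeq2 lost that of Gzmb (adjusted p = 0.0535) and gained those of Casq1, Col3a1, Dpt, Plin1, Pvalb and Timp3 (adjusted p = 0.0153 to 0.0425). DESeq2's size factors lost those of Jak2 and Stat3 (adjusted p = 0.0501 to 0.0512). Upper quartile scaling lost those of Ccne2 and Jak1 (adjusted p = 0.0502 to 0.0556) and gained those of Klrb1c and Timp3 (adjusted p = 0.0458 to 0.0496). At least 10 counts in every library lost those of Acta1 and Jak1 (adjusted p = 0.0505 to 0.0587) and gained those of Col3a1, Mrc1, Tgfbr1 and Timp3 (adjusted p = 0.0355 to 0.0469), and no filter lost those of Ccne2, Jak1 and Stat3 (adjusted p = 0.0503 to 0.0669). The filter of 10 counts also left 7 of 24 calls in epithelial transcription factors, 5 of 8 in T cell, 1 of 7 in cytotoxic and 3 of 11 in regulatory T cell genes. With all 19 libraries in the fit 3 collagens fell in place of 5.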

Other observations

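Other gene groups were looked at after the values of all genes had been seen, so their members were chosen with the outcome in view and they carry no support of their own. Over all genes tested, 33.6% were called higher and 28.8% lower, the shares to set beside each count of this section. Genes of cholesterol metabolism were higher in 15 of 21 cases and lower in 1 (median log2 fold change 0.91). Cyp51, a sterol demethylase, was 186, 104, 114 and 138 CPM with anti-CTLA4 and 14.2, 11.6 and 11.9 CPM in cured tissue (log2 fold change 3.43 ± 0.23, adjusted p = 4.78e-05), and the squalene epoxidase gene Sqle rose by 2.78 ± 0.22 on the log2 scale. Fatty acid oxidation went the other way, with all 18 genes lower (median -1.17), Fabp3, the fatty acid binding protein of muscle, at -2.21 ± 0.35 and the trifunctional enzyme subunit Hadhb at -1.66 ± 0.22. Mitochondrial ribosomal protein genes were lower in 67 of 74 cases (median -0.75). Cytosolic ribosomal protein genes were higher in 32 of 77 cases and lower in 2 (median 0.35), against 33.6% and 28.8% of all genes. One of the 2 was Rpl3l, the form of striated muscle, with 49.7, 319, 142 and 164 CPM against 766, 704 and 701 CPM (log2 fold change -2.11 ± 0.50, adjusted p = 0.00643), whereas the general form Rpl3 rose (log2 fold change 1.47 ± 0.19, adjusted p = 0.000446). Among 37 proteasome subunits 23 fell and 4 rose (median -0.42), and falls of this size can depend on the TMM scaling. The 3 immunoproteasome subunits Psmb8, Psmb9 and Psmb10 were among those that rose (1.41 ± 0.17, 1.08 ± 0.20 and 0.78 ± 0.16).

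Circadian clock genes were lower in 11 of 15 cases and higher in 2 (median -0.74). The clock output factor Dbp was 17.3, 77.1, 48.0 and 49.2 CPM against 207, 189.6 and 169.5 CPM (log2 fold change -1.98 ± 0.40, adjusted p = 0.00312), and the clock repressor Nr1d1 was 86.5, 197, 153 and 111 CPM against 509.8, 411 and 425 CPM (log2 fold change -1.72 ± 0.27, adjusted p = 0.000924). The hour at which tissue was taken is not given in the sources used here. Of 15 immediate early genes 7 rose and 2 fell, with the AP-1 subunit Junb at 2.06 ± 0.12. Of 15 genes of endoplasmic reticulum stress and amino acid response 9 rose and 4 fell, and Asns, asparagine synthetase, was 58.0, 39.3, 61.4 and 55.1 CPM against 7.26, 5.05 and 5.88 CPM (log2 fold change 3.14 ± 0.20, adjusted p = 4.67e-05). Schwann cell and nerve genes fell in 8 of 12 cases with none higher, smooth muscle genes fell in 6 of 11 and rose in 2, and none of 13 cartilage genes was called. Single libraries stood apart in a cartilage gene named after its values were seen. Col10a1, a collagen of growth cartilage, was 3.27, 51.5, 15.2 and 5.49 CPM with anti-CTLA4 and 53.5, 1.54 and 0.0973 CPM in cured tissue, so anti-CTLA4 library 2 and cured library 2 stood far above the other libraries of their groups.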
